A study of Mus musculus with 16 samples.

Results

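The Myc family genes measured here were Myc (c-Myc), Mycn, Mycl1 and Max, 4 of the 28095 gene names on a 1-colour Agilent whole mouse genome array, and they were read by 7 probes chosen by gene name alone. RNA from 16 mouse samples was hybridized to 1 array each. There was 1 array of embryonic fibroblasts (MEF) from C57BL/6 mice, 2 of embryonic stem (ES) cells (B6ES, C57BL/6, and TT2, an F1 of C57BL/6 and CBA), 1 of the iPS line 20D17 made with retrovirus vectors on a C57BL/6 x DBA background, and 12 of iPS cells made with an iHAC, 4 for each of the groups iHAC1-iPS, iHAC2-iPS and iHAC-free iPS. An iHAC is a human artificial chromosome that carries mouse reprogramming cDNAs driven by CAG promoters between HS4 insulators. iHAC1 holds 2 copies of each of Klf4, c-Myc, Sox2 and Oct4. iHAC2 holds the same copies, 2 more copies of Oct4 and a p53 knockdown construct. Each iHAC was transferred into embryonic fibroblasts of the same strain as the MEF array. Mimics of microRNAs, meant to raise the efficiency of reprogramming, were transfected in the days after the transfer. The iHAC-free iPS lines had lost iHAC2 and were sorted as EGFP-negative cells, F-B1 from clone 2-B1, F-C5 from 2-C6, F-E4 from 2-E and F-N7 from 2-N. Each iPS sample is 1 clone, so the p-values below rest on the spread between clones and lines. In the limma fits this spread is pooled over all groups with more than 1 array, not only those compared. ES and iPS cells were grown with fibroblast feeder cells.

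Myc proteins are transcription factors of the basic helix-loop-helix leucine zipper class that bind DNA as dimers with Max. Max also pairs with the Mxd and Mnt repressors, so that activating and repressing dimers compete for the same E-box sequences. Myc promotes growth and cell cycle entry and is one of the classical reprogramming factors, Mycn is the paralog known for high expression in ES cells and embryos, and Mycl1 (now Mycl) is the third paralog.

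The 3 Myc probes were kept apart because they lie in different parts of the transcript. The coding probe is at chr15:61820925-61820984 and the stop-codon probe at chr15:61821417-61821476 (mm9, plus strand). The 3′UTR probe is at chr15:61821516-61821576, starts 52 bases past the stop codon and was spotted 10 times on each array. The sequences are shown because they decide which transcripts a probe can pair with, an expression cDNA that holds the coding part included. Where the c-Myc cDNA on the iHAC ends is not given in the sources used here. In the coding probes of Myc and Mycn, capitals mark the 27 of 51 aligned bases at which the probes match each other without gaps. In the stop-codon probe, capitals mark the stop codon, which is followed by 13 bases of 3′UTR. For the 3′UTR probe the first 30 bases are given.
Myc coding probe: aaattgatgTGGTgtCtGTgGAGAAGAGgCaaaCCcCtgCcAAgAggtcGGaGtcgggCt
Mycn coding probe: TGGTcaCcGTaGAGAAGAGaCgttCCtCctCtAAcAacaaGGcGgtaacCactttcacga
Myc stop-codon probe: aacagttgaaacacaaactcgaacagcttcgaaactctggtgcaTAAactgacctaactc
Myc 3′UTR probe: gttccttctgacagaactgatgcgctggaa

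The Mycn coding probe lies at chr12:12944312-12944371 and a second Mycn probe, 1119 bases further along the transcript and called the downstream probe here, at chr12:12943193-12943252, both on the minus strand. The Mycl1 probe is at chr4:122679548-122679607 (plus strand) and the Max probe at chr12:78038283-78038342 (minus strand). All 7 probes were well above background on all 16 arrays, except the Mycn coding probe, which was not on the iHAC1-iPS clones 1-A3 and 1-D6. Levels below are log2 of the background-subtracted signal minus the 75th percentile of the array, so 0 is the level of that percentile and 1 unit is 2-fold. Levels of different probes are not comparable with each other.

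The clones did not all match their label as iPS cells. All 5 measured pluripotent markers were well above background in both ES lines, 20D17, all iHAC2-iPS clones and all iHAC-free iPS lines. They numbered 2 of 5 in MEFs, in 1-A3 and in 1-D6, 4 of 5 in 1-B and 5 of 5 in 1-C3. The mean log2 level of the 5 markers ran from -4.55 to -1.58 in iHAC1-iPS cells, against 3.03 to 3.57 in ES cells, 1.41 to 3.08 in iHAC2-iPS cells and 3.07 to 3.12 in iHAC-free iPS cells. It was -6.34 in MEFs, where Tdgf1 had no value. The mean of 10 fibroblast markers was 4.11 in MEFs, 2.69 to 3.55 in iHAC1-iPS cells, 1.47 to 3.27 in iHAC2-iPS cells, 2.25 to 3.20 in iHAC-free iPS cells, 3.07 in 20D17 and 0.94 to 2.18 in ES cells. The part of these differences in the results on iHAC1-iPS cells was not tested. Each count of called family probes that involves iHAC1-iPS cells is also given without 1-A3 and 1-D6. The counts for the gene lists further below are given only with these clones included.

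The coding part of Myc was most abundant in the clones that carried an iHAC. The level of the coding probe was 4.66 in 1-A3, 3.63 in 1-B, 3.80 in 1-C3 and 4.53 in 1-D6. It was 1.04 in 2-B1, 3.42 in 2-C6, 1.43 in 2-E and 1.87 in 2-N. In cells without an iHAC it was -0.98 in MEFs, -0.83 in B6ES, -1.08 in TT2 and -0.74 in 20D17, and it was lowest in the iHAC-free iPS lines, at -2.42 in F-B1, -3.08 in F-C5, -2.55 in F-E4 and -2.51 in F-N7. The iHAC1-iPS, iHAC2-iPS and iHAC-free iPS groups did not overlap, and the clone 2-C6 stood well above the other iHAC2-iPS clones. Groups without overlap were common, at 32.6% of all probes tested for iHAC1-iPS and iHAC2-iPS cells, 44.1% for iHAC1-iPS and iHAC-free iPS cells, 11.3% for iHAC2-iPS clones and iHAC-free lines, and 48.4%, 37.4% and 45.7% for iHAC1-iPS, iHAC2-iPS and iHAC-free iPS cells beside ES cells. The stop-codon probe gave the same order of groups, with a mean of 6.25 ± 0.43 (SD, n = 4) for iHAC1-iPS clones. With iHAC2 it averaged 4.22 ± 0.95 (SD, n = 4). The ES lines averaged 1.52 ± 0.06 (SD, n = 2). For iHAC-free iPS lines it was 0.07 ± 0.29 (SD, n = 4).

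At the 3′UTR of Myc the carriers were lowest instead, while the groups without an iHAC kept their order, from 20D17 through ES cells and MEFs down to the iHAC-free iPS lines. Its probe read 2.34 in MEFs, 2.45 in B6ES, 2.39 in TT2 and 2.77 in 20D17. It read 1.31 in F-B1, 0.72 in F-C5, 1.11 in F-E4 and 1.35 in F-N7. Among carriers it read 1.06 in 2-B1, 0.18 in 2-C6, -0.21 in 2-E and 0.38 in 2-N, and -1.28 in 1-A3, -0.57 in 1-B, -0.33 in 1-C3 and 0.29 in 1-D6. Every iPS clone made with an iHAC was below every ES line, MEF and 20D17 array, whereas the neighbouring groups iHAC-free and iHAC2-iPS, and iHAC2-iPS and iHAC1-iPS, overlapped. The 10 spots of this probe had an SD of 0.034 to 0.116 log2 units on an array. In bulk RNA, fewer cells with a transcript and less of it per cell cannot be told apart.

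**Figure D1:**
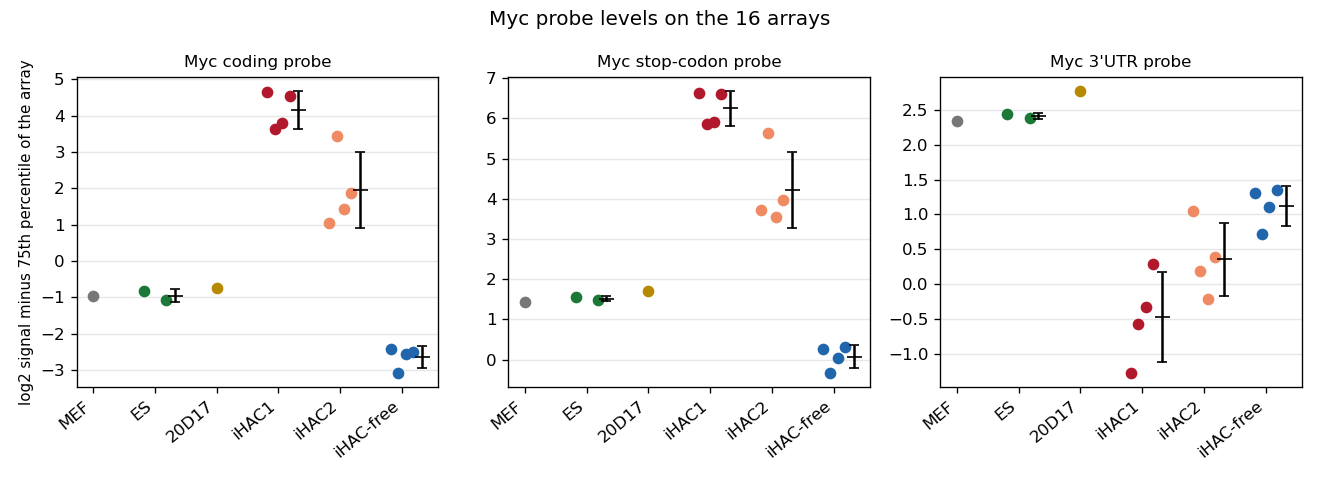
Levels of the 3 Myc probes on the 16 arrays, in log2 units above the array's 75th percentile, by group (points are arrays, bars are mean ± SD where a group has more than 1 array, and each panel has its own axis). The iHAC1 and iHAC2 groups are highest for the coding and stop-codon probes and lowest for the 3′UTR probe, with iHAC1 at a mean of 4.15 for the coding probe and -0.47 for the 3′UTR probe.

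Against ES cells, iHAC1-iPS cells were 34.6-fold higher at the Myc coding probe (log2 difference 5.11, SE 0.53, limma adjusted p = 0.000123) and 26.6-fold higher at the stop-codon probe (4.73, SE 0.48, adjusted p = 0.000106). At the 3′UTR probe they were 7.42-fold lower (-2.89, SE 0.40, adjusted p = 0.000619). In iHAC2-iPS cells the same 3 probes differed from ES cells by 7.46-fold higher (2.90, SE 0.53, adjusted p = 0.00958), 6.51-fold higher (2.70, SE 0.48, adjusted p = 0.00847) and 4.19-fold lower (-2.07, SE 0.40, adjusted p = 0.0112). These comparisons share the ES arrays. The 3 iHAC2-iPS calls were lost without B6ES, without TT2 and when only the compared groups were fitted, with 0 of 7 family probes called each time and adjusted p-values of 0.0659, 0.0772 and 0.138 for the coding probe. Its difference was then 3.03, 2.77 and 2.90. The share of all probes called also fell, from 6.80% in the reported fit to 1.18% without B6ES, 1.02% without TT2 and 0.0605% with only the compared groups. The iHAC2-iPS and iHAC-free iPS arrays were scanned in one session and all others in another, so in comparisons across them the session cannot be told apart from the group.

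The loss of the iHAC could be followed within a scan session. iHAC2-iPS cells were 23.9-fold higher than iHAC-free iPS cells at the Myc coding probe (4.58, SE 0.43, limma adjusted p = 0.0011) and 17.7-fold higher at the stop-codon probe (4.15, SE 0.39, adjusted p = 0.0011). Each clone exceeded the line derived from it at the coding probe, by 3.46 for 2-B1, 6.50 for 2-C6, 3.98 for 2-E and 4.38 for 2-N. On the 2 slides that hold these groups, the coding difference was 5.24 and 3.92. At the 3′UTR probe the difference was -0.77 (SE 0.32, adjusted p = 0.235), which did not pass, although all 4 clones were below the lines derived from them, by -0.25 to -1.33. The comparison of iHAC1-iPS with iHAC-free iPS cells crosses the scan sessions, and these lines had lost iHAC2, not iHAC1. In it, iHAC1-iPS cells were 111-fold higher at the coding probe (6.79, SE 0.43, adjusted p = 2.6e-06). They were 3.03-fold lower at the 3′UTR probe (-1.60, SE 0.32, adjusted p = 0.0026).

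Between the carriers, iHAC1-iPS cells exceeded iHAC2-iPS cells 4.64-fold at the coding probe (2.21, SE 0.43, limma adjusted p = 0.00255) and 4.09-fold at the stop-codon probe (2.03, SE 0.39, adjusted p = 0.00234). Their 3′UTR difference of -0.82 (SE 0.32, adjusted p = 0.0624) did not pass, but was called without 1-D6 (-1.08, adjusted p = 0.0245) and without 2-E (-1.01, adjusted p = 0.0384). Both iHACs hold 2 copies of the c-Myc cDNA.

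After loss of the iHAC all 3 Myc probes were below ES cells, by -1.68 (SE 0.53, adjusted p = 0.123) for the coding probe, -1.44 (SE 0.48, adjusted p = 0.136) for the stop-codon probe and -1.29 (SE 0.40, adjusted p = 0.117) for the 3′UTR probe. The groups did not overlap at any of the 3, but limma called 0 of the 7 family probes in this comparison, with 4 of 7 at an unadjusted p under 0.05. Across all probes tested in this comparison 0.363% were called, 20.3% had an unadjusted p under 0.05 and 45.7% had groups that did not overlap. The comparison also crosses the scan sessions. By qRT-PCR, the paper reported endogenous c-Myc in iHAC-free clones at a level similar to that of ES cells.

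Because the difference between probes on 1 array does not depend on how that array was scaled, the 3 Myc probes were also compared within arrays. In the 8 arrays without an iHAC, MEFs and 20D17 included, coding minus 3′UTR stayed between -3.87 and -3.28, and stop-codon minus 3′UTR between -1.06 and -0.89. The ends of the first range were set by F-N7 and B6ES, and those of the second by F-E4 and B6ES. The values of 20D17, -3.51 and -1.06, lay between these ends. In iHAC1-iPS cells coding minus 3′UTR was 5.93 in 1-A3, 4.20 in 1-B, 4.12 in 1-C3 and 4.24 in 1-D6, and in iHAC2-iPS cells it was -0.01 in 2-B1, 3.24 in 2-C6, 1.65 in 2-E and 1.49 in 2-N. All 8 carriers lay above all 8 other arrays. The difference between carriers and the 6 ES and iHAC-free iPS arrays was 6.74 log2 units for coding minus 3′UTR and 6.30 for stop-codon minus 3′UTR, each with an exact permutation p = 0.000333, the smallest that 3003 regroupings can give, and 0.0035 adjusted over the 21 contrasts tested. The regroupings ignore the scan sessions and the descent of each iHAC-free line from an iHAC2-iPS clone.

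Coding minus 3′UTR was 5.35 higher with iHAC2 than after its loss, 8.39 higher with iHAC1 than in iHAC-free lines and 3.04 higher with iHAC1 than with iHAC2, each with an exact two-sided permutation p = 0.0286, the smallest that 4 against 4 arrays allows, and an adjusted p = 0.06. The differences from ES cells were 8.0 and 4.97 for iHAC1-iPS and iHAC2-iPS cells, where 4 against 2 arrays cannot go below 0.0667. Coding and stop-codon probes moved nearly in step, and their difference was only 0.45 larger in carriers (exact permutation p = 0.00333, adjusted 0.0233). This small difference was -0.01 under normexp background correction. A difference of this kind shows that probes changed unequally, not that either was constant.

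**Figure D2:**
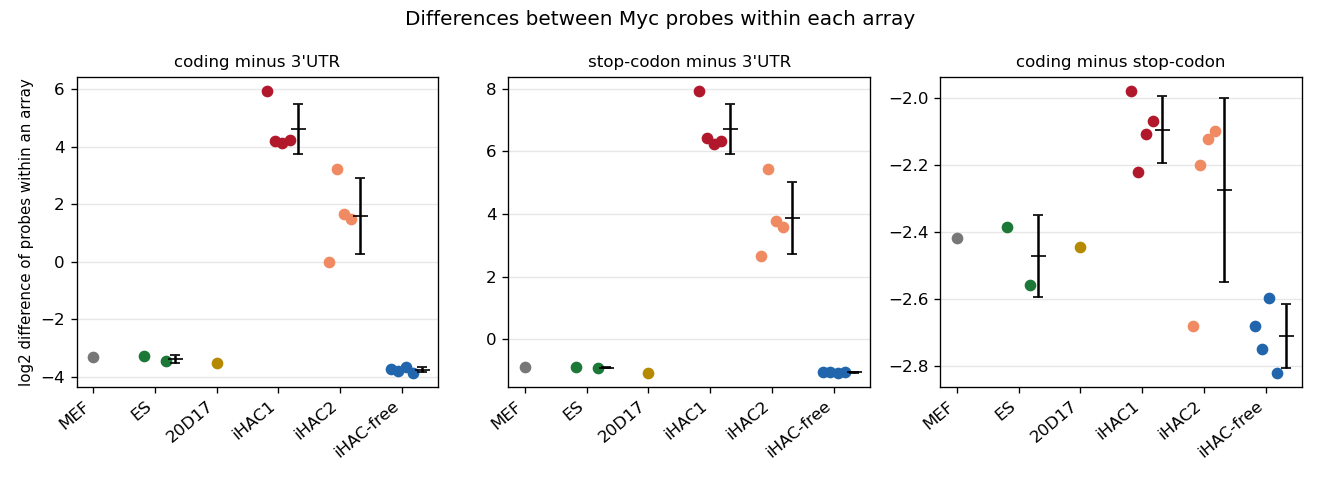
Log2 differences between pairs of Myc probes within each array, by group (points are arrays, bars are mean ± SD, each panel with its own axis). Carriers lie above every other array for coding minus 3′UTR and stop-codon minus 3′UTR, and the 4 iHAC-free iPS lines lie within -3.87 to -3.66 for the first.

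Mycn was highest in ES cells and lowest in iHAC1-iPS cells. The downstream probe read 4.53 in B6ES and 4.45 in TT2, 3.99 in F-B1, 3.69 in F-C5, 3.61 in F-E4 and 3.86 in F-N7, and 3.39 in 20D17. It read 3.36 in 2-B1, 2.77 in 2-C6, 2.08 in 2-E and 2.95 in 2-N, 0.48 in MEFs, and -2.42 in 1-A3, 1.00 in 1-B, 1.5 in 1-C3 and -1.28 in 1-D6. The order of groups was therefore ES, iHAC-free iPS, 20D17, iHAC2-iPS, MEF and iHAC1-iPS, and the ranges of neighbours overlapped only between MEF and iHAC1-iPS cells. The coding probe gave the same order, and the difference between both Mycn probes on an array was -5.65 to -4.05 throughout.

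iHAC1-iPS cells were 27.8-fold lower than ES cells at the Mycn downstream probe (-4.79, SE 0.84, limma adjusted p = 0.00247), 17-fold lower than iHAC-free iPS cells (-4.09, SE 0.69, adjusted p = 0.000878) and 8.53-fold lower than iHAC2-iPS cells (-3.09, SE 0.69, adjusted p = 0.00506). The coding probe was also called in all 3 comparisons, at -4.89, -4.00 and -2.60. Its size there is uncertain because it was well above background on 2 of the 4 iHAC1-iPS arrays. Without 1-A3 and 1-D6 the downstream differences were -3.24, -2.54 and -1.54 and all were still called. The same 2 clones had the fewest pluripotent markers above background.

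In iHAC2-iPS cells Mycn was below ES cells by -1.70 (SE 0.84, adjusted p = 0.189) at the downstream probe and by -2.30 (SE 0.73, adjusted p = 0.0597) at the coding probe, neither called, although no array overlapped. The coding probe was called under normexp correction (-1.77, adjusted p = 0.000719), without a filter on dim probes (-2.30, adjusted p = 0.0321) and with the slide as a block (-2.15, adjusted p = 0.0397). iHAC-free iPS cells differed from ES cells by -0.70 (SE 0.84, adjusted p = 0.671) at the downstream probe. The SEs pool the spread of all groups. At the downstream probe the SD was 1.86 in iHAC1-iPS, 0.53 in iHAC2-iPS, 0.17 in iHAC-free iPS and 0.05 in ES cells. Each iHAC2-iPS clone read below its own iHAC-free line, by -0.63 to -1.53 at the downstream probe, where the comparison did not pass (-1.0, SE 0.69, adjusted p = 0.466). At the coding probe the 4 pairs differed by -0.98 to -1.83. That difference did not pass in the reported fit (-1.41, SE 0.60, limma adjusted p = 0.240), but did under normexp correction (-1.02, adjusted p = 0.00937) and with only the compared groups (-1.41, adjusted p = 0.0358).

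Mycl1 differed little. Its levels ran from 0.01 to 0.93 in iHAC1-iPS cells, -0.95 to 0.36 in iHAC2-iPS cells and -0.51 to 0.29 in iHAC-free iPS cells, with -0.39 in B6ES, 0.21 in TT2, -0.14 in 20D17 and -0.86 in MEFs. Neighbouring groups overlapped throughout the order of levels, and no comparison was called in the reported fit. The largest difference was 0.81 (SE 0.31, adjusted p = 0.0592), for iHAC1-iPS against iHAC2-iPS cells, and it was called without 2-B1 (1.06, adjusted p = 0.0173).

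Max, the partner of all Myc proteins, also kept within a narrow range. It read 3.95 in B6ES, 4.07 in TT2, 3.93 in 20D17 and 3.61 in MEFs, 3.69 to 4.32 in iHAC1-iPS cells, 2.97 to 4.02 in iHAC2-iPS cells and 3.22 to 3.51 in iHAC-free iPS cells. It was called in no comparison. iHAC1-iPS cells exceeded iHAC2-iPS cells by 0.64 (SE 0.23, adjusted p = 0.0447), which is under the required 2-fold, and iHAC-free iPS cells were below ES cells by -0.63 (SE 0.28, adjusted p = 0.235).

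**Figure D3:**
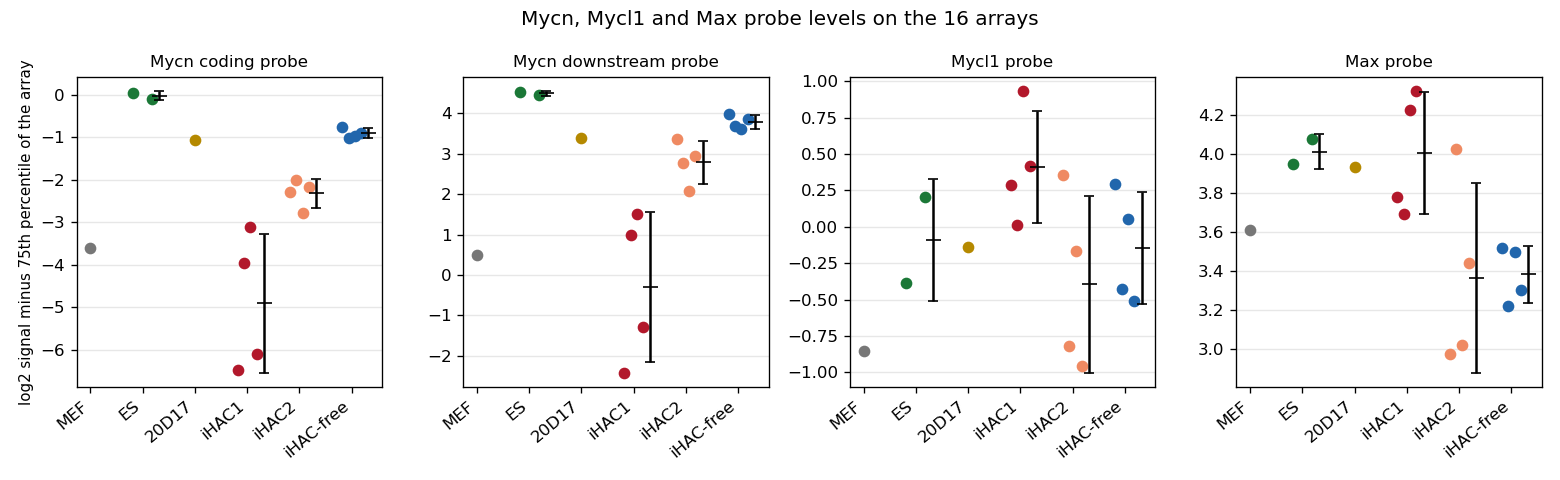
Levels of the Mycn, Mycl1 and Max probes on the 16 arrays, in log2 units above the array's 75th percentile (points are arrays, bars are mean ± SD, each panel with its own axis). The iHAC1 group is lowest for both Mycn probes, at a mean of -0.30 for the downstream probe against 4.49 in ES cells, and the groups overlap for Mycl1.

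Counted over the family, limma called 5 of 7 probes for iHAC1-iPS against ES cells (2 higher, 3 lower), where 14.3% of all 31415 probes tested were called, and 3 of 7 for iHAC2-iPS against ES cells, where 6.80% were. It called 4 of 7 for iHAC1-iPS against iHAC2-iPS cells (20.0% of all probes), 5 of 7 for iHAC1-iPS against iHAC-free iPS cells (20.1%) and 2 of 7 between iHAC2-iPS clones and iHAC-free lines (0.815%). Without 1-A3 and 1-D6 the counts that involve iHAC1-iPS cells were 5 against ES, 4 against iHAC2-iPS and 5 against iHAC-free iPS cells, where 7.75%, 10.5% and 13.3% of all probes were called.

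The other 3 reprogramming factors have 1 probe each. Which part of the transcript it reads was not examined, so a lower signal need not mean less of cell and iHAC transcript together. By qRT-PCR the paper measured total and endogenous forms of these factors and of c-Myc apart. It reported the transgenic factors above their endogenous counterparts in iHAC1-iPS and iHAC2-iPS cells. Pou5f1 (Oct4) exceeded its ES level 6.95-fold in iHAC1-iPS cells (2.80, SE 0.49, limma adjusted p = 0.00244) and 5.10-fold higher in iHAC2-iPS than in iHAC-free iPS cells (2.35, SE 0.40, adjusted p = 0.0223), whereas Klf4 was 8.33-fold and 6.14-fold lower in these comparisons (-3.06, SE 0.56, adjusted p = 0.00313, and -2.62, SE 0.46, adjusted p = 0.0236). Sox2 was lower in the first comparison (-2.46, SE 0.61, adjusted p = 0.0146) and not called in the second (-1.65, SE 0.50, adjusted p = 0.133).

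The network of Myc, Max and Mlx was described by a list of 10 further genes, of which all had a probe well above background on every array. Mxd4, a Max-binding repressor, rose 4.77-fold in iHAC1-iPS against ES cells (2.25, SE 0.36, limma adjusted p = 0.00142), and was also higher than in iHAC2-iPS (1.34, SE 0.29) and iHAC-free iPS cells (1.81, SE 0.29). Its mean level was 0.64 in iHAC1-iPS cells, 0.34 in the MEF array and -1.62 in ES cells. Mxi1, another repressor, exceeded its ES level 2.22-fold in iHAC1-iPS cells (adjusted p = 0.000481) and 2.27-fold in iHAC2-iPS cells (adjusted p = 0.00254). The iHAC-free iPS lines also exceeded ES cells at Mxi1, 1.79-fold (0.84, SE 0.15, limma adjusted p = 0.0409), which is under the required 2-fold. Relative to these lines, iHAC2-iPS clones differed at Mxi1 by 0.34 (SE 0.12, limma adjusted p = 0.185), which did not pass. Mga, which pairs with Max in a repressive complex, and Mlxipl, a glucose-responsive factor that pairs with Mlx, were lower in iHAC1-iPS cells than in iHAC2-iPS cells (-1.06, SE 0.17, and -2.71, SE 0.48) and than in iHAC-free iPS cells (-1.24, SE 0.17, and -2.41, SE 0.48). Read by their brightest probes, Mxd1, Mxd3, Mnt, Mlx, Mlxip and Bmyc were called in no comparison. Over all 16 probes of the list, 3 were higher and 1 lower in iHAC1-iPS against ES cells, and 2 were higher in iHAC2-iPS against ES cells. Of all probes tested, 14.3% and 6.80% were called there. In iHAC1-iPS against iHAC2-iPS and iHAC-free iPS cells 20.0% and 20.1% were. The median difference of the list was 0.19 against ES cells in iHAC1-iPS, 0.30 in iHAC2-iPS and 0.26 in iHAC-free iPS cells, beside 0.04, 0.06 and 0.03 over all probes tested.

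**Figure D4:**
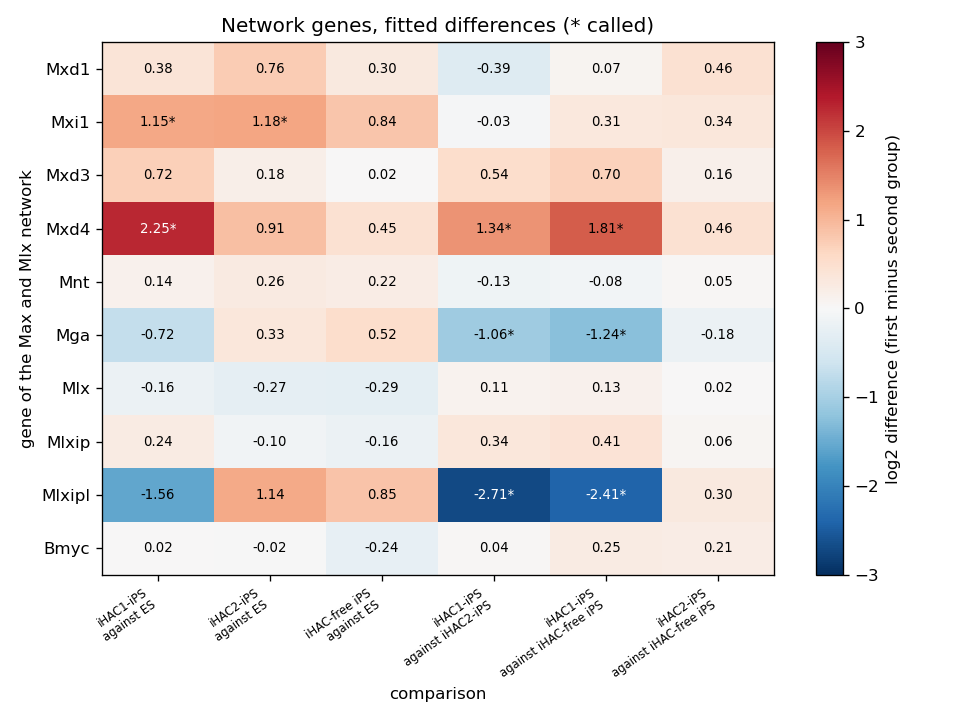
Fitted log2 differences of the 10 network genes (rows) in the 6 comparisons (columns), first group minus second, with called differences marked by an asterisk. Mxd4 is called in all 3 comparisons that involve iHAC1-iPS cells. No network gene is called for iHAC-free iPS against ES cells or between iHAC2-iPS clones and iHAC-free lines, where 0.363% and 0.815% of all probes were.

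Among 18 genes for Myc cofactors and regulators, 2 fell and 0 rose in iHAC1-iPS against ES cells, beside 14.3% of all probes called in either direction. They were Usp28, a deubiquitinase that stabilizes Myc (-1.68, SE 0.42, limma adjusted p = 0.0156), and Pim1, a kinase that cooperates with Myc (-1.48, SE 0.31, adjusted p = 0.00596), and both were also lower than in iHAC2-iPS and iHAC-free iPS cells. Mean levels in iHAC1-iPS cells, the MEF array and ES cells were 0.67, -0.07 and 2.35 for Usp28, and -1.60, -1.75 and -0.12 for Pim1. None of the 18 was called at its brightest probe for iHAC2-iPS or iHAC-free iPS cells against ES cells, or between iHAC2-iPS clones and iHAC-free lines, where 6.80%, 0.363% and 0.815% of all probes were. With all 38 probes of these genes, 1 was lower in iHAC2-iPS against ES cells.

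Of 20 genes that Myc is known to activate, each read by its brightest probe, 1 was called in iHAC1-iPS and 2 in iHAC2-iPS against ES cells, beside 14.3% and 6.80% of all probes. With all 38 probes of these genes the first comparison had 3 higher and 2 lower. Ccnd2 (cyclin D2) exceeded its ES level in iHAC1-iPS cells (2.02, SE 0.41, limma adjusted p = 0.00562), and was the 1 called there. Its mean level was 5.27 in iHAC1-iPS cells, 5.73 in the MEF array and 3.25 in ES cells. In iHAC2-iPS against ES cells 2 were lower, Apex1, a DNA repair endonuclease (-1.27, SE 0.31, adjusted p = 0.0263), and Nme1, a nucleoside diphosphate kinase (-1.17, SE 0.35, adjusted p = 0.0495). Ccnd2 was also the largest called rise of the list in iHAC1-iPS against iHAC2-iPS cells (1.78, SE 0.34, adjusted p = 0.00213) and against the freed lines (1.48, SE 0.34, adjusted p = 0.00512). The medians of the 20 against ES cells were -0.17 in iHAC1-iPS, -0.40 in iHAC2-iPS and -0.47 in iHAC-free iPS cells, beside 0.04, 0.06 and 0.03 over all probes, and 0 of the 20 were called between iHAC2-iPS clones and iHAC-free lines, beside 0.815% of all probes.

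Of 7 genes that Myc is known to repress, Cdkn1a, an inhibitor of cyclin-dependent kinases, exceeded its ES level in iHAC1-iPS cells (1.60, SE 0.26, limma adjusted p = 0.00175). Its mean level was 3.19 in iHAC1-iPS cells, 4.21 in the MEF array and 1.59 in ES cells. Ndrg1, a stress-responsive gene, exceeded its ES level in iHAC2-iPS cells (2.28, SE 0.35, adjusted p = 0.00524) and its level after loss of the iHAC (1.32, SE 0.28, adjusted p = 0.0491). Gadd45a was lower in iHAC1-iPS than in iHAC-free iPS cells (-2.13, SE 0.40, adjusted p = 0.00176). In iHAC1-iPS against iHAC2-iPS cells Thbs1, an inhibitor of angiogenesis, was higher (1.57, SE 0.46, adjusted p = 0.0196) and Ndrg1 lower (-2.21, SE 0.28, adjusted p = 0.000265). Called genes of this list went in both directions in 2 comparisons, iHAC1-iPS against iHAC2-iPS (1 higher, 3 lower) and against iHAC-free iPS cells (1 higher, 2 lower), where 20.0% and 20.1% of all probes were called.

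Genes whose levels ran most like a member over the 16 arrays are given as a description, since the arrays share groups and scan sessions. For the Myc coding probe they were Tmem147 (Pearson r = 0.96), Hbb-bh1 (0.96) and Ndufa12 (0.95), and for the stop-codon probe Hbb-bh1 (0.96), Tmem147 (0.96) and Fcgr2b (0.95). For the 3′UTR probe they were Wdfy1 (0.92), 1810013L24Rik (0.91) and 2210016F16Rik (0.91). For the Mycn downstream probe they were Rps6kl1 (0.98), Rasip1 (0.97) and Zfp518a (0.97), and for the Mycn coding probe Slc16a6 (0.97), Dnmt3a (0.96) and Rasip1 (0.95). Mycl1 ran most like Prdx4 (0.89), Zfp687 (0.85) and Cep97 (0.82), and Max like Pdss1 (0.95), Ddx51 (0.95) and Kctd5 (0.94).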

How the data were processed

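The authors hybridized 16 samples to 1-colour Agilent arrays and extracted the spots with Feature Extraction 10.7.1.1 or 10.7.3.1, following 2 scan sessions. The deposited scanner files hold intensity values per spot, background-subtracted and not scaled between arrays. The deposited value table holds log2 values that the authors normalized in GeneSpring and centred by probe. It served as an alternative.

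Control and outlier spots were left out, spots of a probe averaged, and log2 taken minus the 75th percentile of each array. The 31415 probes well above background on at least 1 array were fitted with limma 3.58.1 (R 4.3.3) over all arrays and 6 groups. A probe was called at a Benjamini-Hochberg adjusted p under 0.05 and at least 2-fold. Differences between Myc probes within an array were compared by two-sided exact permutation tests (Python 3.11.15, numpy 2.4.6). Steps were tested on simulated data. Arrays had 54.2% to 65.8% of spots well above background and 0 saturated. The number of arrays limits the precision.

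Members and lists were chosen with earlier results of these data known. For each gene of a list the brightest probe was used. Named were all member probes, all network genes, the called gene with the largest rise and fall of each other list, and the 3 genes most like each member probe. Each iHAC-free line is paired with the iHAC2-iPS clone it came from. Correlations of their deviations were -0.219 to 0.0799 for pairs and -0.105 to 0.216 otherwise. Alternatives were background correction, normalization, filters, slide and line blocks, the groups fitted and leaving out each array, and omission of 1-A3 and 1-D6 was added after seeing the data.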

Additional observations from a re-analysis of the deposited data

Results flagged for a closer look

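Over 30 groups of 4 arrays examined (7 probe levels and 3 probe differences in 3 groups each), 2 held an array far from the others, where chance gives about 1 in 20, or 1.5. Both were the iHAC1-iPS clone 1-A3, with a coding minus 3′UTR difference of 5.93 against 4.24 for the nearest clone, and a stop-codon minus 3′UTR difference of 7.91 against 6.43. Both differences use the same 3′UTR level of this array, so they are not independent of each other.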

How the results depend on the processing

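The counts of called family probes held within 1.5 times of the reported count under every alternative run, except iHAC2-iPS against ES cells, which fell from 3 to 0 when only the compared groups were fitted and ranged from 0 to 3 when each array was left out in turn (0 without B6ES and 0 without TT2). In those 3 fits 0.0605%, 1.18% and 1.02% of all probes were called, against 6.80% in the reported fit. The cause was not tested. Left out in turn, the arrays gave 5 calls throughout for iHAC1-iPS cells against ES and against iHAC-free iPS cells, 4 to 5 against iHAC2-iPS cells, and 2 throughout for iHAC2-iPS cells against the lines freed of the iHAC. With the line of origin as a replicate block, the paired fit also called 2 probes, the Myc coding probe at 4.58 (adjusted p = 0.0103), and it changed no other call. The exact sign-flip test over 4 pairs gave p = 0.125 for coding minus 3′UTR, the smallest it allows.

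Coding minus stop-codon, the small Myc contrast, depended on background correction. Under normexp it was -0.12 for iHAC2-iPS and 0.00494 for iHAC1-iPS against iHAC-free iPS cells, 0.16 for iHAC1-iPS against ES cells, 0.15 for the freed lines against ES cells, and -0.00586 for carriers. For iHAC2-iPS against iHAC-free iPS lines it ranged from 0.38 to 0.57 with arrays left out. For iHAC-free iPS against ES cells, coding minus 3′UTR was -0.54 under quantile normalization and -0.012 under normexp, and stop-codon minus 3′UTR was -0.22 and -0.16. For iHAC1-iPS against iHAC2-iPS cells, leaving out arrays gave 2.50 to 3.59 for coding minus 3′UTR and 2.46 to 3.38 for stop-codon minus 3′UTR, with an exact permutation p of 0.0571 when any 1 iHAC1-iPS array was missing.

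Differences near 0 changed sign without being called. Max in iHAC1-iPS against ES cells was 0.072 under quantile normalization, 0.00067 under normexp and 0.31 with the slide as a block, and -0.11 to 0.10 with arrays left out. Max in iHAC2-iPS cells against the freed lines ran from -0.24 to 0.11, and Mycl1 in iHAC-free iPS against ES cells from -0.35 to 0.24. The genes most like a member were shared with Spearman ranking in 2 of 3 cases for the Myc probes and Mycl1, 1 of 3 for Max and 0 of 3 for both Mycn probes. With all probes of a gene in place of the brightest, called probes numbered 4 in place of 2 genes for the network list and 5 in place of 1 for the activated list in iHAC1-iPS against ES cells. With 2 ES arrays, and 1 array each of MEFs and 20D17, smaller differences from ES cells could not be resolved.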
